A study of Mus musculus with 4 samples.

Results

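Cytosolic ribosomal protein genes of the regenerating mouse liver are described here. They were chosen by name: all probe sets whose single platform gene symbol begins with Rpl or Rps followed by a digit, or is Rplp0, Rplp1 or Rplp2, without S6 kinases and named pseudogenes. The rule found 104 probe sets for 49 genes, out of 34945 probe sets for 18193 genes with a single symbol, and the rule reads names and not signals. It also takes in Rps19bp1, which encodes a protein that binds Rps19 and is not itself a ribosomal subunit. All livers came from BALB/c nu/nu mice, which lack mature T cells. Each mouse had received carbon tetrachloride, a hepatotoxin, 23 times at 0.25 ml/kg, then 1000000 human bone marrow mesenchymal stem cells into the spleen. The liver was partly resected on day 21 and collected on day 8 after that. The groups differ in what the human cells carried: the control protein EGFP (n = 2 arrays) or OGFRL1 (n = 2 arrays). Whether both arrays of a group are from different animals is not in the labels, so all p-values rest on array-to-array spread alone, which may be technical.

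A ribosome has a small subunit, which reads the mRNA, and a large subunit, which forms the peptide bonds. Each holds its own set of ribosomal proteins, named Rps and Rpl, around ribosomal RNA. Cells make these proteins in near-equal amounts. Their mRNAs are among the most abundant in liver, and many begin with a 5′ terminal oligopyrimidine tract (TOP), a C followed by other pyrimidines, through which mTORC1 and LARP1 control their translation. A regenerating liver is known to build ribosomes as its hepatocytes grow and divide. An array measures the mRNA level and not translation.

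Stretches around the annotated transcription start were taken for genes on which the results below turn, from RefSeq (GRCm38.p6), which had a promoter entry for 43 of the 49 genes. Each runs 15 bases to either side of the start, and capitals mark the run of C and T that holds or touches the first transcribed base. The first 7 genes have a long run there. They include Rpl14 and Rpl22l1, which showed some of the highest differences, and Rpl38, which showed one of the lowest. The last 3 have a short run or none at the annotated start.
Rpl14 (chr9:120571502-120571531, + strand): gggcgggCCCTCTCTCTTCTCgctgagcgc
Rpl22l1 (chr3:28805493-28805522, + strand): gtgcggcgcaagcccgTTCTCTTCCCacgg
Rpl35 (chr2:39005117-39005146, - strand): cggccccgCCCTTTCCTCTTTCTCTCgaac
Rps10 (chr17:27635230-27635259, - strand): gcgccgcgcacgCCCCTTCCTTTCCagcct
Rps18 (chr17:33955651-33955680, - strand): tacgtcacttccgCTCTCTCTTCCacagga
Rps6 (chr4:86857353-86857382, - strand): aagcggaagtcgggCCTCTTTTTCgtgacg
Rpl38 (chr11:114668565-114668594, + strand): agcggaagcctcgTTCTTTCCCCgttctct
Rplp0 (chr5:115559452-115559481, + strand): gtcttcgggtttcgaggaccgcctggttct
Rps4x (chrX:102189377-102189406, - strand): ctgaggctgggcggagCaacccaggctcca
Rps2 (chr17:24720048-24720077, + strand): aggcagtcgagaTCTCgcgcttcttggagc
A run of 5 or more pyrimidines at the annotated start was found in 18 of the 43 genes (41.9%), and in 23.0% of the tested genes with a promoter entry. The letters CTTTCC, searched on both strands of the 300 bases from 250 before to 50 after the start, were in 22 of 43 (51.2%) and in 30.5% of tested genes. The letters CCGGAAG, a core recognised by ETS-family factors, were on either strand of that window in 20 of 43 (46.5%), in 19.4% of tested genes and in 9.93% of all 27025 genes with an entry. CCGGAAG ends in AAG, the letters with which AAGATGGC, the YY1 core, begins. The YY1 core was in 4 of 43 (9.30%) and in 5.14% of tested genes. CCGGAAG is shown in capitals, as it lies or as its reverse complement, in 60 bases upstream of the start for 3 of the 5 genes with the lowest differences.
Rps2 (chr17:24719909-24719968, + strand): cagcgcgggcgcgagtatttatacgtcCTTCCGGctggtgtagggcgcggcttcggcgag
Rpl41 (chr10:128549192-128549251, - strand): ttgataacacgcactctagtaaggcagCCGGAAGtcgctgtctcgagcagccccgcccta
Rpl38 (chr11:114668520-114668579, + strand): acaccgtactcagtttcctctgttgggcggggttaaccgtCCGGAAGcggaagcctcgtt
These matches describe the letters in the window. Among the lowest genes not shown, Rps28 had no match upstream of its start and Rps29 had no promoter entry. CCGGAAG also lay, on either strand, upstream of Rpl35, which is among the highest differences, and of Rps10 and Rps18. Annotated starts can lie some bases away from the start used in liver.

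Deposited values are MAS5 signals, and differences are OGFRL1 minus EGFP on the log2(signal + 3.51) scale with the standard error (SE) of the limma fit. Each array's trimmed mean signal was 100.0. The ratio of the 3′ to the 5′ probe set, a sign of RNA quality, was 1.57 to 1.94 for actin and 0.734 to 0.787 for Gapdh. The hepatocyte markers Alb, Apoa1, Ttr and Cyp2e1 were all present, with summed signals of 41602 to 58764 on EGFP and 30316 to 33643 on OGFRL1 arrays. The T cell markers Cd3e, Cd3g and Cd4 were below the minimum signal, and Cd8a was between 2.14 and 25.9. Summed signals of Mki67, Top2a, Cdk1 and Birc5, markers of cycling cells, were 711 and 386 on EGFP arrays and 1552 and 1924 on OGFRL1 arrays. Fewer cells of a type and less RNA per cell cannot be told apart in bulk tissue, and the part of these shifts in the ribosomal protein values was not tested. Strong signals in general were lower on OGFRL1 arrays. Other genes at 5000 or more had a median difference of -0.45 as deposited and -0.048 after quantile normalization. The part of this in the lower hepatocyte sums was not tested either.

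Of the 49 genes, 46 reached the mean signal of 11.6 required for the test, each represented by its probe set of highest signal. Rpl3l, Rpl39l and Rps16 did not, and for Rps16 the single-symbol probe set had a mean signal of 1.06. With the deposited scaling, most ribosomal protein genes had small differences. The other scalings gave medians from 0.105 to 0.40, described below. No gene passed the limma threshold (adjusted p under 0.05), against 0.511% of the 11942 genes tested. At an unadjusted p under 0.05 there were 3 of 46 (6.52%), against 15.3% of all genes, an order that turned round after quantile normalization and cyclic loess. The median difference was 0.055, with 28 genes higher and 18 lower, and the median over all genes was 0.042. In size, without regard to sign, the differences had a median of 0.11 for ribosomal protein genes and 0.22 for all genes. For 31 of the 46 genes the difference was smaller than its own SE, and 42 lay within 0.3 of 0. These are counts from 2 arrays per group, and a missed threshold does not show that levels were equal. OGFRL1 arrays lay above both EGFP arrays in 11 of 46 genes (23.9%, against 27.0% of all genes) and below both in 2 (4.35%, against 20.5%), so 33 overlapped, while 47.5% of all genes did not.

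**Figure D1:**
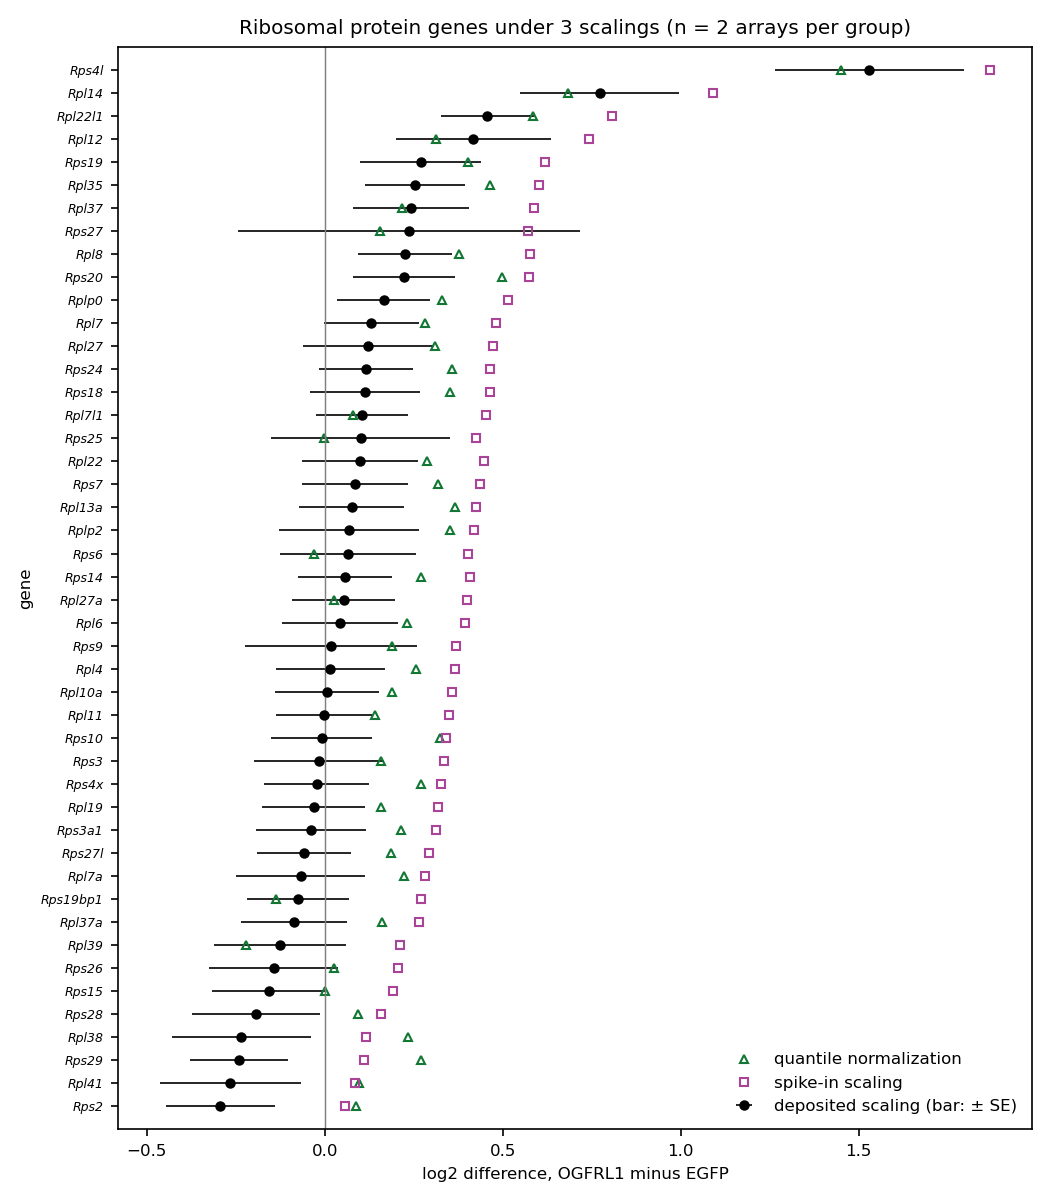
Log2 difference between OGFRL1 and EGFP livers (x axis) for the 46 tested genes (y axis), as deposited with the SE of the limma fit (black), after quantile normalization (green triangles) and after spike-in scaling (purple squares). Most black points lie within 0.3 of 0, Rps4l stands at 1.53, and both other scalings shift most genes to the right.

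Rps4l had the highest difference of the set. It encodes a paralog of Rps4x, a small subunit protein. Its signal was 83.8 and 68.1 on the EGFP arrays and 290.4 and 174 on the OGFRL1 arrays. Both OGFRL1 arrays lay above both EGFP arrays, although they differed from each other by more than the EGFP arrays did. The difference was 1.53 ± 0.265 (SE), with a limma adjusted p of 0.0684 that missed the threshold. It passed without EGFP 1 (1.67, limma adjusted p = 0.0148, with 5.18% of all genes called) and without EGFP 2 (1.39, limma adjusted p = 0.0322), and with the replicate number as a block (limma adjusted p = 0.0451, with 0.494% called). It did not pass without OGFRL1 1 (1.17) or OGFRL1 2 (1.89). Hardly any gene passed without an OGFRL1 array, while far more passed without an EGFP array. Passing or missing the threshold in these fits therefore does not show on which arrays the Rps4l difference rests. In each such fit the lone array of a group is assumed to vary like the other group. Rps4x itself was at 5882 and 5064 in EGFP and 5143 and 5610.2 in OGFRL1 livers. Its arrays overlapped fully and its difference was -0.023 ± 0.15. The signals of the pair come from different probe sets and are not compared with each other.

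Rpl22l1 encodes a paralog of the large subunit protein Rpl22. Its signal was 1801 and 1834 on EGFP arrays and 2621 and 2376 on OGFRL1 arrays. The EGFP arrays were close together and both OGFRL1 arrays stood above them. The difference was 0.46 ± 0.13 (limma adjusted p = 0.182). Rpl22, on its probe set of highest signal, had 4116 and 3259 in EGFP and 3752 and 4096 in OGFRL1 livers, with overlapping groups and a difference of 0.098 ± 0.16. Rpl22 had further probe sets that did not move together. One had 915 and 1641 against 1650.1 and 2270 (0.66), and another had 187 and 217 against 152 and 102 (-0.68). So the relation of Rpl22l1 to Rpl22 depends on which Rpl22 probe set is read.

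Other paralogs had smaller differences as deposited. Rps27l, known as a p53 target, had 4876 and 5079 in EGFP and 4897 and 4670.0 in OGFRL1 livers (-0.058 ± 0.13). Its 3 probe sets had differences between -0.12 and -0.058. Rps27 was measured at low signal, 109.6 and 38.7 against 102.3 and 59.1, with 1 low array in each group (0.24 ± 0.48). Rpl7l1, a relative of Rpl7, had 409 and 399 in EGFP and 437 and 433 in OGFRL1 livers, a small step of 0.105 ± 0.13 without overlap. Rpl7 had 3222 and 3563 against 3727 and 3694 (0.13 ± 0.13). Rpl39, a small protein of the exit tunnel, had 86.6 and 93.8 against 90.7 and 74.5 (-0.13 ± 0.185). Both Rps27 and Rpl39 are also named by a far stronger probe set with several symbols, which the rule leaves out. That of Rps27 had 1769 and 1799 against 1777 and 2145 (0.13). That of Rpl39 had 8500 and 7383 against 7058 and 7514 (-0.12).

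**Figure D2:**
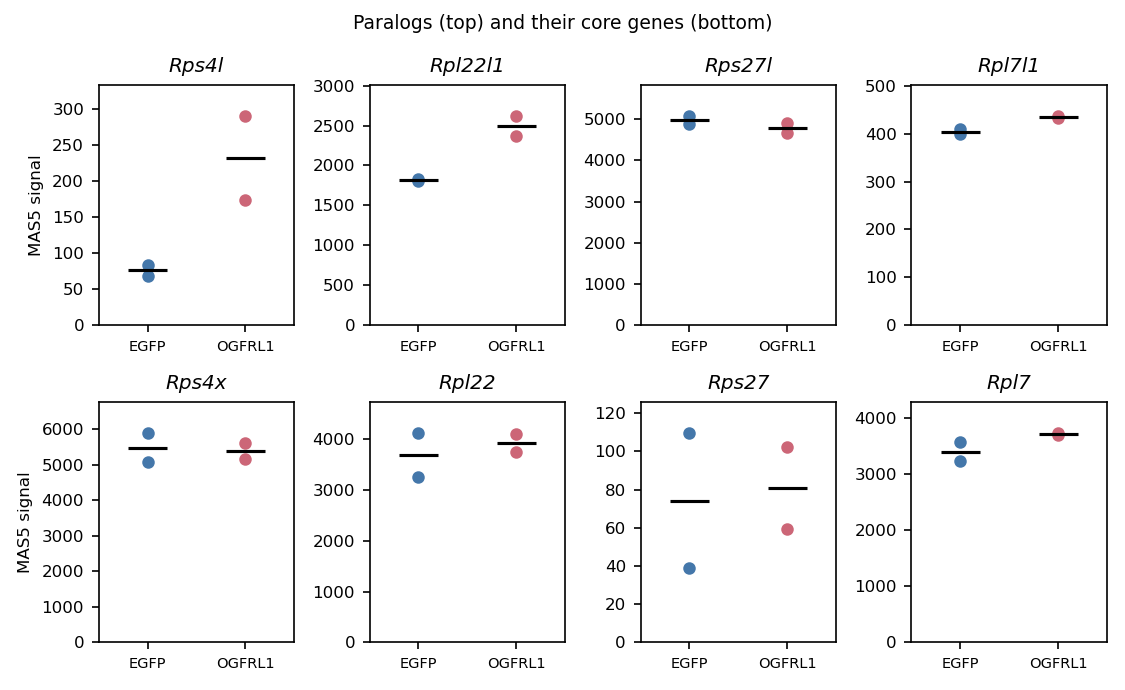
MAS5 signal (y axis, from 0) in EGFP and OGFRL1 livers for 4 ribosomal protein paralogs (top) and their core genes (bottom). Points are single arrays (2 per group) and bars are group means; Rps4l, Rpl22l1 and, by a small step, Rpl7l1 have both OGFRL1 points above both EGFP points; of their core genes Rpl7 does too, and Rps4x and Rpl22 overlap.

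Of the genes of the large subunit, leaving out the paralogs, 15 of 22 were above 0, with a median of 0.061. Rpl14 had 25.7 and 28.2 in EGFP and 50.2 and 46.9 in OGFRL1 livers, with no overlap and the arrays of each group close together (0.77 ± 0.22, limma adjusted p = 0.186). Rpl14 is also read by 5 probe sets that the platform assigns to Rpl14 and a pseudogene of it and that the rule therefore leaves out. Their differences were 0.31 to 0.51, and on each of them both OGFRL1 arrays lay above both EGFP arrays. These probe sets share a target and are not independent measurements. Rpl12 had 44.9 and 36.0 against 57.0 and 52.8 (0.42 ± 0.22), a low signal. The strongest probe set naming Rpl12, left out by the rule, had 4810 and 3334 against 4619 and 4855 (0.24, with overlap). Another gave 0.41 without overlap. Rpl35 had 4096 and 3574 against 4462 and 4661 (0.25 ± 0.14), and each of its 5 probe sets above the minimum gave a difference between 0.22 and 0.40.

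The lowest of the large subunit were Rpl41 and Rpl38, which both encode small proteins. Rpl41 had 8527 and 5927 in EGFP and 5757 and 6078 in OGFRL1 livers, so EGFP 1 stood far above the other 3 arrays (-0.27 ± 0.20). Rpl38 had the same pattern, with 9645 and 6836 against 6598 and 7219.5 (-0.23 ± 0.195). Without EGFP 2, which leaves EGFP 1 as the lone control array, these genes passed the threshold (-0.53 with a limma adjusted p of 0.0331, and -0.48 with a limma adjusted p of 0.0468), while 7.17% of all genes did. Without EGFP 1, Rpl38 was at 0.014 and Rpl41 at -0.0028, so both values rest on EGFP 1.

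Genes for acidic proteins of the stalk, which recruits the elongation factors, also had small differences as deposited. Rplp0, the stalk base and a common reference gene, had 3404 and 3378 in EGFP and 3707 and 3900.3 in OGFRL1 livers. The groups did not overlap, yet the difference was 0.165 ± 0.13 (limma adjusted p = 0.61). Rplp2 had 6061 and 4321 against 5005 and 5757 (0.069 ± 0.20). Rpl11, which binds MDM2 when ribosome assembly fails, had 3246 and 3562 against 3279 and 3516 (-0.0020 ± 0.136). Rpl13a, another reference gene, had 5492 and 4724 against 5175 and 5568 (0.076 ± 0.15).

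Genes of the small subunit, again without the paralogs, divided evenly, with 10 of 19 above 0 and a median of 0.018. The lowest value among the 46 genes was that of Rps2, a protein of the mRNA entry channel. Its signal was 8174 and 6899 in EGFP and 5861 and 6410 in OGFRL1 livers, both OGFRL1 arrays being lower (-0.29 ± 0.15, limma adjusted p = 0.431). Rps29, a zinc-binding protein near the mRNA, had 10376.7 and 9898 against 8367 and 8788, also without overlap (-0.24 ± 0.14), and its other probe sets gave -0.16 and -0.29. Rps28 had 6965 and 5169 against 5040.1 and 5464, where EGFP 1 stood apart (-0.19 ± 0.18), and it was at 0.022 without EGFP 1. Rps15 had 3434 and 2764 against 2607 and 2925 (-0.16 ± 0.16), but its other probe set, of nearly the same signal, had 2489 and 2572 against 2895 and 3097 without overlap (0.24). At the upper end, Rps19, the gene mutated most often in Diamond-Blackfan anaemia, had 2426 and 1924 against 2403 and 2823, with overlap (0.27 ± 0.17). Rps18, a further reference gene, had 5013 and 4132 against 4733 and 5125 (0.11 ± 0.15). Its 3 probe sets above the minimum differed by at most 0.016.

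Rps6, the substrate of the S6 kinases, was read by a single-symbol probe set of low signal, at 83.1 and 76.0 in EGFP and 92.3 and 75.1 in OGFRL1 livers (0.065 ± 0.19). Further probe sets of Rps6 are shared with a pseudogene. The strongest of them had 8991 and 5810.2 against 5643 and 6253 (-0.28), and another had 3517 and 3536 against 3846 and 4314 (0.21). No common direction came out for this gene. In all, 110 probe sets carry a ribosomal protein symbol beside other symbols and name 31 more ribosomal protein genes. Of the 101 above the minimum signal, 71 were above 0, with a median of 0.13 and values from -0.81 to 1.30.

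Probe sets of the same gene often disagreed. The rule's 92 probe sets above the minimum had a median difference of 0.11, with 64 above 0 and 0 past the threshold in a limma fit of all probe sets, against 0.336% of those tested. In that fit 19 of the 92 (20.7%) had an unadjusted p under 0.05, against 14.0% of all probe sets tested. Both OGFRL1 arrays were above both EGFP arrays on 38 of 92 (41.3%, against 25.9% of all such probe sets), and below on 5 (5.43%, against 20.0%). Since 92 probe sets read 46 genes, these counts are not of independent features. For 20 genes with several probe sets above the minimum, the range of differences within a gene had a median of 0.36. In 13 of the 20 the probe set of lowest signal gave a higher difference than that of highest signal, and in 5 the probe sets lay on both sides of 0.

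Rps10 had the widest range. Its probe set of highest signal had 6453 and 5794 in EGFP and 5836 and 6329 in OGFRL1 livers (-0.0087 ± 0.14). Another had 493 and 2124 against 3435 and 3767 (1.81), and EGFP 1 alone was far below the rest. Rpl13a ranged from 0.076 on its strongest probe set to 0.67 on its weakest, which had 544 and 572 against 820.0 and 964. Rpl41 went from -0.27 to 0.77 on its weakest probe set, at 21.4 and 14.6 against 31.9 and 33.7. Rps14 and Rps18, by contrast, had ranges of 0.010 and 0.016. Of the 92 probe sets, 38 have an identifier ending in _x_at, the platform's mark for probes that can also bind other transcripts. Their median was 0.12, beside 0.056 for the 28 ending in _a_at and 0.165 for the 23 with a plain identifier, whose median signal was 86.4.

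**Figure D3:**
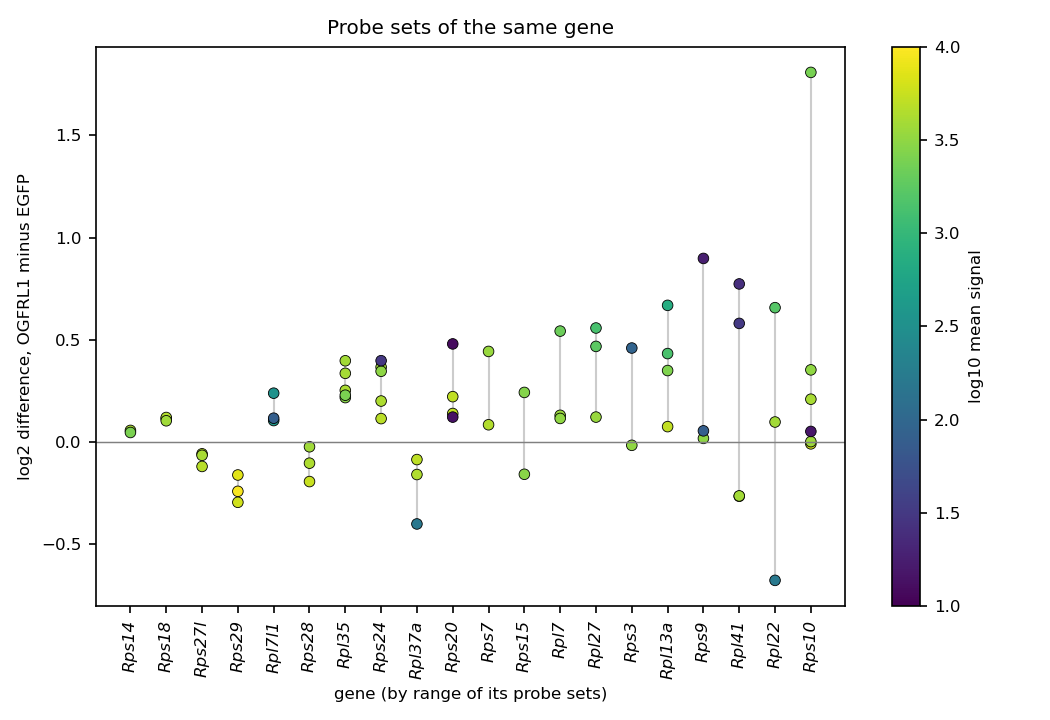
Log2 difference (y axis) of each probe set above the minimum signal, for the 20 genes with several (x axis, ordered by range). Colour gives the log10 mean signal; ranges go from 0.010 in Rps14 to 1.82 in Rps10, and many low-signal probe sets lie above the high-signal ones of the same gene.

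Strong signals were generally lower in the OGFRL1 group as deposited, and ribosomal protein genes, most of which have strong signals, were near 0 there. Among genes with a mean signal of 5000 or more, 119 of 122 other genes were below 0, with a median of -0.45, and 9 of 12 ribosomal protein genes were, with a median of -0.077. From 3000 to 5000, 145 of 166 other genes were below 0 (median -0.30), and 6 of 19 ribosomal protein genes were (median 0.043). In the range below 100 the medians were 0.17 for 6 ribosomal protein genes and 0.089 for 5621 others. These values stand side by side and their difference was not tested. The ranges depend on signal, which reflects the probes as well as the transcripts.

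**Figure D4:**
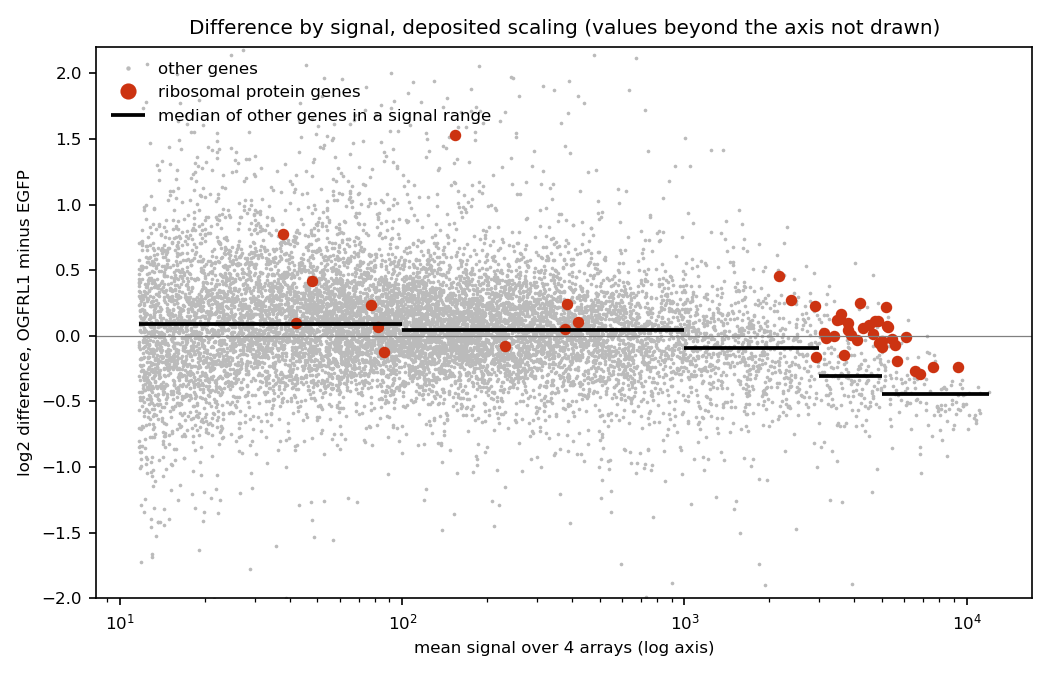
Log2 difference (y axis) against mean signal over the 4 arrays (x axis, log scale) for other tested genes (grey) and the 46 ribosomal protein genes (red). Black bars are medians of the other genes in 5 signal ranges, which go from 0.089 below 100 to -0.45 at 5000 or more, while the red points at high signal lie mostly above the bars.

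The direction of the whole set depended on how arrays were scaled. After quantile normalization, which gives all arrays the same distribution, 42 of 46 genes were above 0 and the median was 0.23, while that of all genes was 0.0021. Cyclic loess, which removes trends with signal between arrays, gave 41 of 46 and 0.21, with 0.0052 for all genes. Equal medians gave 34 of 46 and 0.105, with 0.090 for all genes. Scaling to the BioB, BioC, BioD and Cre hybridisation controls put all 46 above 0 with a median of 0.40, but all genes moved with them (0.38). The control probe sets themselves had a mean difference of -0.35 as deposited. Under this last scaling Rps4l, Rpl22l1 and Rpl14 passed the limma threshold (6.52% of the set, against 12.7% of all genes). None of the 46 passed after quantile normalization, where 0.0335% of all genes did. At an unadjusted p under 0.05, by contrast, limma gave 16 of the 46 (34.8%) after quantile normalization, against 14.2% of all genes, and 10 of 46 (21.7%) with cyclic loess, against 14.0%. With spike-in scaling it gave 10 of 46, against 30.2%. Rps2, Rpl41, Rps29, Rpl38 and Rps28 were below 0 as deposited and above 0 after quantile normalization and spike-in scaling. The genes with the highest differences as deposited, Rps4l, Rpl14, Rpl22l1, Rpl12, Rps19 and Rpl35, were above 0 in all 5 scalings. So was every other gene of the set that was above 0 as deposited, except Rps6 and Rps25. After quantile normalization Rps6 was at -0.030 and Rps25 at -0.0014.

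Sizes of the shifts were set in part by the EGFP arrays. EGFP 2 was below EGFP 1 in 36 of 46 genes (78.3%, against 52.6% of all genes), by a median of 0.22. It was the lowest of the 4 arrays in 26 genes, and EGFP 1 was the highest in 25. Centred on each gene's mean, the median over the 46 genes was 0.093 for EGFP 1, -0.13 for EGFP 2, and between them for the OGFRL1 arrays (-0.0072 and 0.050). The median difference was therefore 0.125 without EGFP 1 and -0.079 without EGFP 2. After quantile normalization, cyclic loess and spike-in scaling both OGFRL1 arrays had higher centred medians than both EGFP arrays.

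**Figure D5:**
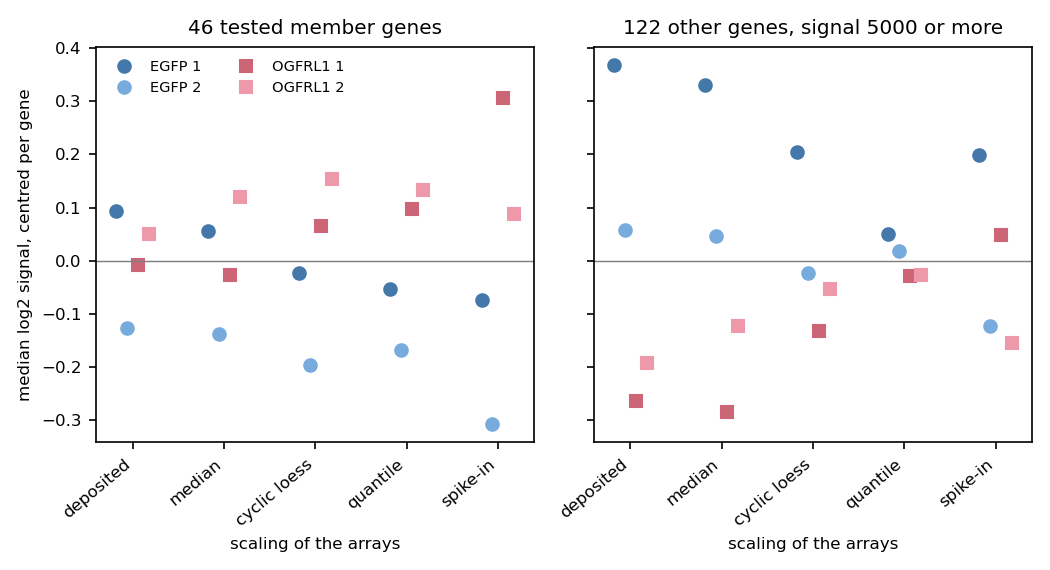
Median log2 signal of each array, centred per gene (y axis), under 5 scalings (x axis), for the 46 tested genes of the rule (left) and for 122 other genes with signals of 5000 or more (right). As deposited, the OGFRL1 arrays lie between the EGFP arrays on the left and below both on the right.

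Control probe sets for ribosomal RNA and the genes around the ribosome were read for comparison. Those for 18S rRNA, the RNA of the small subunit, had differences of 0.13 (3′), 0.19 (middle) and -0.068 (5′). The middle one had 3952 and 3861 in EGFP and 4008 and 4968 in OGFRL1 livers, while the others overlapped. These are controls of the array and differed in sign, so they are not taken as the level of ribosomal RNA. Of ribosomal proteins with other names, Rpsa had 0.205 ± 0.19 and Fau -0.082 ± 0.16.

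The gene lists that follow were read with the deposited scaling alone. There, 44.4% of all genes were below 0, and the median over all genes was 0.042. Nucleolar genes of rRNA processing and ribosome assembly were mostly above 0, with 53 of 66 higher and a median of 0.17, but none passed the threshold. Examples are Nop58, a core protein of box C/D particles (0.71 ± 0.18, limma adjusted p = 0.138), the AAA-ATPase Nvl (0.62 ± 0.19), nucleolin, encoded by Ncl (0.46 ± 0.14), and Utp3 (0.45 ± 0.15). Among RNA polymerase I and its factors 10 of 16 were higher, with a median of 0.036 and none past the threshold. Of these, Myc, a known driver of ribosome production, had 1.04 ± 0.26 (limma adjusted p = 0.145), Taf1d 0.53 ± 0.28, Polr1e 0.46 ± 0.26 and Polr1c 0.395 ± 0.15.

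Translation factors were mixed. Initiation factors had a median of 0.14 with 18 of 28 higher and none past the threshold: Eif3f had 0.65 ± 0.20, Eif1ax 0.40 ± 0.14 and the cap-binding Eif4e 0.37 ± 0.14, while the helicase Eif4a2 had -0.54 ± 0.13 (limma adjusted p = 0.122). Genes listed as elongation factors had a median of -0.041, 3 of 6 being higher. Eef1a1 was at -0.405 ± 0.18, Eif5a at -0.25 ± 0.15 and Eef2 at -0.20 ± 0.15. Eef1e1, in the list by its name alone, was at 0.31 ± 0.16. Other TOP transcripts, among them the noncoding Snhg1 and Gas5, had a median of 0.25 with 10 of 12 higher, and none passed. Snhg1, a host of small nucleolar RNAs, had 1.16 ± 0.21 (limma adjusted p = 0.0768), the intermediate filament gene Vim 0.90 ± 0.16, Npm1 0.38 ± 0.125 and Tpt1 -0.55 ± 0.21. Vim also marks stellate cells. Their markers Acta2, Col1a1, Col1a2, Pdgfrb and Lrat summed to 1036 to 1149 on EGFP and 1640.2 to 2582 on OGFRL1 arrays. Of these 5 markers 4 were higher, and Lrat was slightly lower (-0.077). The part of stellate cells in the Vim difference was not tested. In the mTORC1 and S6 kinase pathway 11 of 14 were lower, with a median of -0.038 and none past the threshold. The list holds components of the pathway and also its inhibitors, among them Sesn2, Deptor and Tsc2. The count therefore gives no direction for the pathway. Sesn2 had 0.71 ± 0.31, Deptor -0.37 ± 0.17, Rptor -0.39 ± 0.20 and Tsc2 -0.39 ± 0.20. Ribosome-associated and quality control genes had a median of 0.12, with 17 of 22 higher and none past the threshold, among them Nemf (0.48 ± 0.16), Dnajc2 (0.415 ± 0.15), Hspa14 (0.34 ± 0.15) and Gcn1 (0.30 ± 0.195).

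Mitochondrial ribosomal proteins, which form a separate ribosome, centred on 0, with 37 of 76 higher, a median of -0.0033 and none past the threshold. Mrps6 had 0.46 ± 0.145 and Mrpl52 0.28 ± 0.13, while Mrpl37 had -0.43 ± 0.22 and Mrps27 -0.35 ± 0.17.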

How the data were processed

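Liver RNA was labelled from 100 ng of total RNA and hybridised to a mouse expression array. Per the submitters' processing notes the authors used MAS5, with its version not given in the sources used here. The deposited intensities are linear MAS5 signals, 1 per probe set, scaled as whole arrays. Names came from the platform annotation, and all 104 probe sets had an identifier in a RefSeq table of GRCm38.p6. Signals were log2-transformed after adding 3.51, the 25th percentile. The probe set of highest mean signal stood for its gene, and genes under 11.6, the median signal of all probe sets, were left out. All 11942 genes were fitted with limma 3.58.1 in R 4.3.3 (lmFit, eBayes with an intensity trend, 2-sided) and p-values were adjusted by Benjamini-Hochberg over all of them, at 0.05. The fit had 2 residual and 4.48 prior degrees of freedom. On simulated data of the same comparison with 11942 genes it called 15% of genes with a log2 change of 1 and 71.2% with a change of 2.

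The members and lists were chosen with earlier results of these data known. Named are genes past the threshold, the 6 highest and 6 lowest, reference, stalk, MDM2-binding and paralog genes with their core genes, and up to 4 genes of a list, by moderated t. Rps10, Rps14, Rps16 and the probe sets left out by the rule were chosen after their values were seen. Rpl5 and Rplp1 have no single-symbol probe set. Alternatives covered scaling, pseudocount, filter, probe sets, variance model, replicate block and arrays left out. The number of arrays limits the precision. Labels give no pairing beyond the numbers. Figures were made with Python 3.11.15 and matplotlib 3.10.9.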

Additional observations from a re-analysis of the deposited data

How the results depend on the processing

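With 2 arrays per group, only large differences could pass. Genes called, 61 as reported, were 4 after quantile normalization, 17 with cyclic loess, 1519 with spike-in scaling, 94 with 4 times the pseudocount, 21 with a stricter filter, 13 as the mean over probe sets, 0 without a filter and 0 without an intensity trend (limma; 2179 and 1654 genes had an unadjusted p under 0.05), and 0 to 856 with an array left out. Ribosomal protein genes called, 0 as reported by limma, with 3 at an unadjusted p under 0.05, were 3 with spike-in scaling, 1 with the replicate block (Rps4l) and 0 to 3 with an array left out. Their median, 0.055 as reported, was 0.23 after quantile normalization, 0.40 with spike-in scaling and -0.079 to 0.125 with an array left out.

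Directions reversed for Rpl38, Rpl41, Rps2, Rps28 and Rps29 after quantile normalization (0.235, 0.095, 0.087, 0.094 and 0.27) and spike-in scaling (0.12, 0.085, 0.057, 0.16 and 0.11), and for Rpl38, Rps28 and Rps29 with cyclic loess (0.033, 0.044 and 0.051). Rpl41 was at 0.21 as the mean over probe sets and 0.77 without _x_at probe sets. With an array left out, Rpl38 ranged from -0.48 to 0.014 and Rps28 from -0.41 to 0.022, both positive without EGFP 1. The cause was not tested. Of 446 values for 25 named genes, 48 had another sign than reported, most of them in genes within 1 SE of 0.

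Same-numbered arrays did not deviate together (correlation of deviations -0.28). The replicate block gave 59 genes. The crossed pairing, added after seeing the data, gave 934 genes and 1 ribosomal protein gene.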

Other observations

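Genes outside the set whose 4 array values lay closest to the mean course of the tested ribosomal protein genes, by Euclidean distance of centred log2 values over 4 arrays, were Zranb2 (0.015), 2310057M21Rik (0.028) and Zfc3h1 (0.028).

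Among the probe sets that name a ribosomal protein beside other genes, chosen here after their values were seen, 1 for Rps12 had 2795 and 2532 in EGFP and 3708 and 4285 in OGFRL1 livers, a log2 difference of 0.58 with no overlap. The lowest with a strong signal was 1 for Rps2, with 10584 and 7467 against 6427 and 6922 (-0.41), the same direction as the single-symbol probe set of Rps2. A dim probe set for Rpl3 had 16.8 and 7.70 against 30.8 and 36.9 (1.30). The strongest one for Rpl3 had 4373 and 3733 against 4285 and 4530 (0.12, with overlap). None of these probe sets was tested.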
